A study of Mus musculus with 32 samples.

Results

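The subject here is the sexual dimorphism of healthy mouse kidney cortex, that is, how gene expression differed between male and female control mice that had received the vehicle diet. The mice were chosen by their labels alone: 4 males and 4 females with the control genotype and vehicle treatment, 8 of the 32 kidney cortices that the study profiled by bulk RNA-Seq. All 8 mice were 25 weeks old, of the strain C57BL/6J-Col4a3tm1Dec, and carried the genotype Col4a3+/-, so that the controls were not wild type but had 1 intact and 1 disrupted copy of the gene for the collagen IV α3 chain, which is lost in Alport mice. A further 4 males and 4 females of the same age, strain and genotype had received nicotinamide riboside (NR), a precursor of NAD+, in the diet, and they served as another set of mice for the same contrast. The remaining 16 mice had Alport syndrome and entered no main test. Neither the estrous stage of the females nor circulating hormone levels are given in the sources used here.

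The mouse kidney differs between the sexes in size, structure and gene expression. Androgens enlarge the male proximal tubule and raise a set of secreted proteins, transporters and drug-metabolizing enzymes there, and in the liver the sex-dependent rhythm of growth hormone secretion sets a related program. The proximal tubule reabsorbs glucose, amino acids, phosphate and filtered protein and secretes organic anions and cations, while the distal segments adjust the excretion of salt, potassium, calcium, magnesium and water.

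The 8 libraries held 21833587 to 27778797 counts each, and Y-linked genes matched the labelled sex of every mouse. Ddx3y, a Y-linked RNA helicase, was at 0.468 to 0.67 CPM (counts scaled to a common library size, with a correction for library composition) in the females and at 57.5 to 72.5 CPM in the males. Col4a3 itself, whose intact allele both sexes carried, was at 128 to 149.8 CPM in females and 136 to 181 CPM in males (adjusted p = 0.066), and the difference passed the test with DESeq2 (adjusted p = 0.036) and without male replicate 4 (adjusted p = 0.0126). The first principal component of the 8 mice held 53.4% of the variance and separated the sexes. Library composition differed by sex, with scaling factors of 1.04 to 1.08 in females and 0.925 to 0.955 in males, and this bears on every small difference reported here, because without these factors the median log2 fold change of all genes moves by −0.165 toward females.

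Of 14990 genes with enough counts to be tested, 4756 (31.7%) differed between the sexes at an adjusted p under 0.05, with 2370 (15.8%) higher in males and 2386 (15.9%) higher in females. With the library total as the only scaling, 1146 genes were higher in males and 4621 higher in females, so the even split rests on the composition factors. In bulk RNA, fewer cells of a type and less RNA per cell cannot be told apart. The limit of a 2-fold difference, which the study also applied, left 603 genes (4.02%), 282 higher in males (1.88%) and 321 higher in females (2.14%). Among the 14389 tested genes on autosomes, 271 were at least 2-fold higher in males and 303 in females, and at the limit of 8-fold 40 were higher in males and 15 in females. In what follows, a log2 fold change is male minus female, so that positive values are higher in males, ± is its standard error, and a gene is said to be higher or lower only where it passed the adjusted threshold.

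The lists of transport, metabolism and hormone genes examined here held 682 tested autosomal genes, of which 188 were higher in males and 151 higher in females. This is 49.7% of them, beside 31.7% of all genes, and 109 of them (16%) differed at least 2-fold, beside 4.02% of all genes. The choice of lists was informed, so these counts describe the lists and are no independent evidence.

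**Figure D1:**
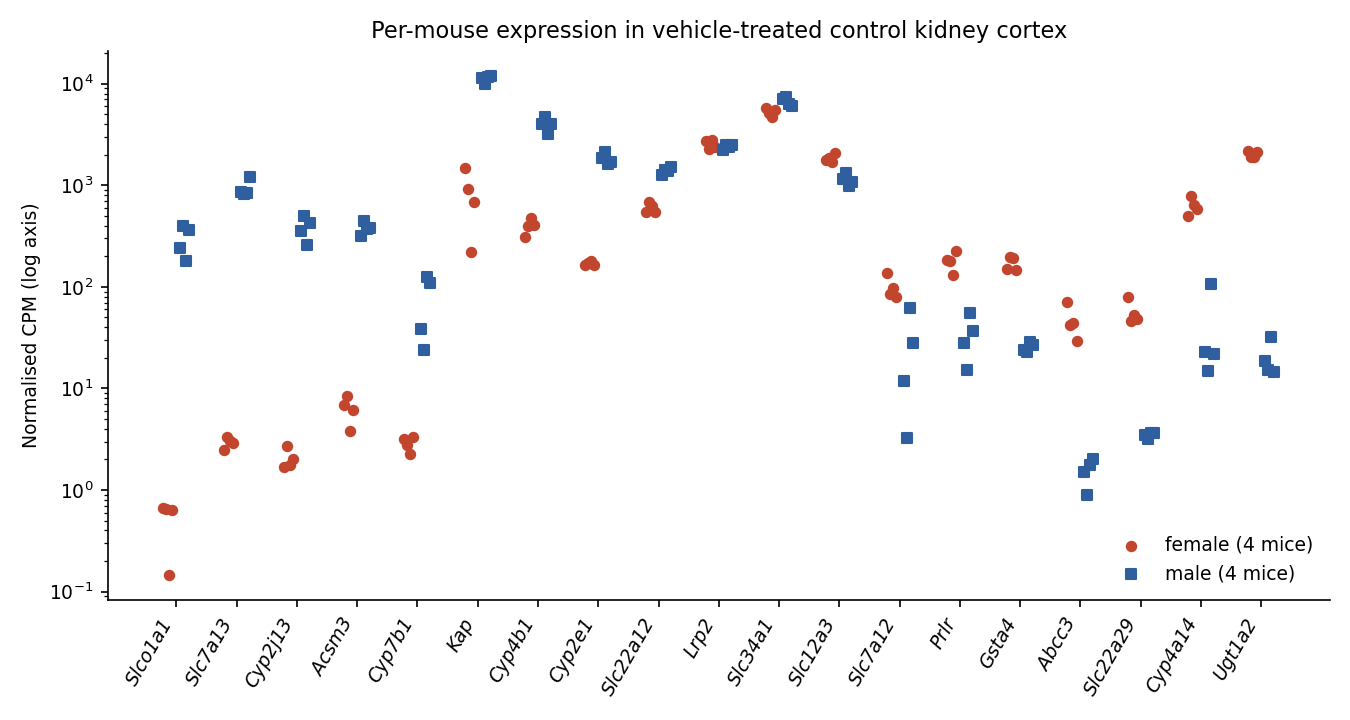
Normalized CPM on a log axis for selected genes in each vehicle-treated control mouse (females, circles; males, squares; 4 mice each, genes along the x axis). The sexes overlap for Lrp2 and lie apart for the other genes shown, with wide gaps for Slco1a1, Slc7a13 and Cyp2j13.

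Several large differences were in proximal tubule transporters that males expressed and females barely did. Slco1a1, an organic anion transporting polypeptide, was at 0.663, 0.654, 0.145 and 0.629 CPM in the 4 females and at 239.6, 399.9, 178 and 360.3 CPM in the 4 males. The log2 fold change was 9.14 ± 0.37 (adjusted p = 1.23e-08), a fitted value that rests on 4 to 19 counts per female library against 4036 to 10376 per male library. Slc7a13, the cystine and acidic amino acid carrier of the straight proximal tubule, stood at 2.5, 3.3, 3 and 2.93 CPM in females and 850.5, 825, 842 and 1196 CPM in males (log2 fold change 8.30 ± 0.17, adjusted p = 2.9e-11). No female library came near a male one for either gene. Cyp2j13, a cytochrome P450 of the fatty acid epoxygenase family, ranged over 1.68 to 2.72 CPM in females and 259 to 502 CPM in males, a 187-fold difference. Acsm3, a medium-chain acyl-CoA synthetase, ranged over 3.84 to 8.33 CPM in females and 316 to 441 CPM in males, a 59.7-fold difference.

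Kap, the kidney androgen-regulated protein of the proximal tubule, showed a different pattern, with a high level in males and a wide spread in females. It was at 1496, 917, 220.2 and 684 CPM in females and at 11340, 9874, 11710 and 11980 CPM in males, so that the females differed among themselves several-fold while the males were close together. The log2 fold change was 3.76 ± 0.44 (adjusted p = 8.39e-05), and Kap alone took 0.934% to 1.14% of all counts in males and 0.0238% to 0.155% in females. Cyp7b1, the oxysterol and steroid 7α-hydroxylase, was the reverse case, tight in females (2.24 to 3.31 CPM) and spread in males (38.4, 23.7, 124 and 109 CPM, log2 fold change 4.69 ± 0.51). Liver-type secreted proteins outside the lists were also among the 12 autosomal genes with the largest male excess: Pzp, a broad protease inhibitor, at 0.0688 to 0.545 CPM in females and 59.6 to 82.2 CPM in males, and Apoh, a phospholipid-binding plasma protein, at 0.181 to 0.31 CPM in females and 13.7 to 24.4 CPM in males. The female values of both rest on few counts, 2 to 13 per library for Pzp and 5 to 9 for Apoh.

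In females the largest excess was that of Ugt1a2, a glucuronosyltransferase, at 2168, 1891, 1898 and 2116 CPM in females and 18.5, 15.3, 31.7 and 14.5 CPM in males (log2 fold change −6.66 ± 0.25, adjusted p = 6.83e-09). Every female stood far above every male. Other genes among the 12 with the largest female excess were less abundant or less separated. Tmprss6, the protease that restrains the iron hormone hepcidin, ranged over 3.37 to 8.46 CPM in females and 0.0858 to 0.144 CPM in males. Slc17a2, a member of the sodium phosphate cotransporter family, ranged over 8.05 to 14 CPM and 0.133 to 0.27 CPM. In males Tmprss6 had 2 to 3 counts per library and Slc17a2 had 3 to 7. Igf2, an insulin-like growth factor, was at 22.9, 38.7, 44.2 and 10.5 CPM in females and 1.78, 2, 1.41 and 1.03 CPM in males (log2 fold change −4.22 ± 0.43), so that the females varied over a several-fold range without meeting the males. Gc, the vitamin D binding protein, was 6.94-fold higher in females (162 to 222 CPM against 19.2 to 38.5 CPM), Cdh6, a cadherin of the developing and adult proximal tubule, was 6.89-fold higher, and Clic6, an intracellular chloride channel protein, was at 4.49 to 6.78 CPM against 0.0385 to 0.221 CPM.

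Genes known as androgen-dependent in mouse kidney were almost uniformly higher in males: 14 of 15, none higher in females, with a median log2 fold change of 3.76 beside −0.02 over all genes. Odc1, ornithine decarboxylase, the entry enzyme of polyamine synthesis, was at 404, 317, 327 and 347 CPM in females and 618, 899.5, 539.8 and 1137 CPM in males (log2 fold change 1.20 ± 0.20). Gusb, β-glucuronidase, a classical androgen-induced enzyme of the mouse kidney, was only slightly higher in males, with a log2 fold change of 0.30 ± 0.08 (adjusted p = 0.0129), and with the library total as the only scaling it lost the call (0.13, adjusted p = 0.202). Agt, angiotensinogen, was the exception, at 45.7, 51.6, 41.9 and 30.3 CPM in females and 27, 20.7, 65.2 and 31.6 CPM in males, and its log2 fold change of −0.23 ± 0.29 did not pass the test (adjusted p = 0.579). The male range of Agt included the whole female range, and without male replicate 3, the highest male, Agt was lower in males (−0.68, adjusted p = 0.0155).

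Of 9 genes listed as higher in female mouse kidney, 6 were higher in females, 2 were higher in males and 1 did not pass the test (median −1.92). Prlr, the prolactin receptor, was at 183, 181, 130.2 and 224 CPM in females and 27.7, 15.1, 55.1 and 36.7 CPM in males (log2 fold change −2.42 ± 0.31, adjusted p = 0.000159). The members higher in males were Cyp2a4, a steroid 15α-hydroxylase known for its female excess in liver, at 128 to 175 CPM in females and 571 to 823 CPM in males (log2 fold change 2.12 ± 0.14), and its near-identical paralog Cyp2a5, named after its values were seen. Hao2, a peroxisomal hydroxy acid oxidase, was at 607, 449, 426 and 498 CPM in females and 474, 362, 519 and 449 CPM in males, with overlapping groups and a log2 fold change of −0.13 ± 0.13 (adjusted p = 0.45).

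Among 15 receptors for sex steroids, growth hormone and related ligands, 4 were higher in males and 3 higher in females (median −0.01). Esr1, estrogen receptor α, was higher in males, at 6.01 to 7.47 CPM in females and 13.7 to 21.5 CPM in males (log2 fold change 1.35 ± 0.14, adjusted p = 3.44e-05). Ghr, the growth hormone receptor, was also higher in males (0.52 ± 0.13, adjusted p = 0.00821), a call lost in the fits of 16 vehicle-treated mice, Alport mice included (adjusted p = 0.0706) and of all 32 mice (0.154). On the female side stood Prlr, the mineralocorticoid receptor Nr3c2 (−0.49 ± 0.08) and the X-linked membrane progesterone receptor component Pgrmc1 (−0.41 ± 0.08).

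Steroid-converting enzymes divided between the sexes, with 13 of 29 higher in males and 7 higher in females (median 0.29). Srd5a1, a 5α-reductase that makes dihydrotestosterone, was at 16.5, 10.9, 10.5 and 11.2 CPM in females and 34.3, 37.4, 29.7 and 34.9 CPM in males, and Hsd17b11, a 17β-hydroxysteroid dehydrogenase, had a log2 fold change of 1.46 ± 0.13. The neighboring aldo-keto reductases of chromosome 13 went in opposite directions. Akr1c14, a 3α-hydroxysteroid dehydrogenase (chr13:4049011-4090688, GRCm38), was at 42.1, 15.7, 12.4 and 15.9 CPM in females and 155, 215, 188 and 235 CPM in males, and Akr1c21, which reduces several ketosteroids, was 2.17-fold higher in males. Akr1c18, the 20α-hydroxysteroid dehydrogenase that inactivates progesterone (chr13:4132615-4150654), was at 12.8, 4.92, 7.09 and 6.03 CPM in females and 0.096, 0.0385, 0.354 and 0.172 CPM in males, where it had 1 to 8 counts per library. Hsd11b2, which protects the mineralocorticoid receptor from glucocorticoids in the distal nephron, was lower in males (−0.53 ± 0.13).

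The organic ion transporters of the Slc22 family moved in both directions, with 8 of 23 tested members higher in males and 10 higher in females (median −0.02). Slc22a12, the urate transporter URAT1 of the luminal membrane, was at 547, 682, 619 and 549 CPM in females and 1272, 1415, 1388 and 1525 CPM in males (log2 fold change 1.22 ± 0.09). Slc22a6, the basolateral organic anion transporter OAT1, was at 489.8, 606, 509.7 and 673 CPM in females and 1166, 1345, 1043 and 1077 CPM in males (1.02 ± 0.11). Both were above the female range in every male. The closely related Slc22a8, OAT3, went the other way, at 756, 885, 827 and 1082 CPM in females and 589.9, 700.1, 634 and 598 CPM in males (−0.49 ± 0.11), and Slc22a7, OAT2, was also lower in males (−1.27 ± 0.18), although the fit of all 32 mice called neither (adjusted p = 0.313 and 0.228). Slc22a2, the organic cation transporter OCT2, was higher in males (0.98 ± 0.10).

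A cluster of Slc22 genes on chromosome 19 held near neighbors of opposite direction. Slc22a28 (chr19:8062209-8131982, GRCm38) was at 26.6, 17.4, 16.2 and 8.09 CPM in females and 189, 198, 162 and 242 CPM in males. Slc22a30 (chr19:8335371-8405111) was at 14.3, 12.3, 9.88 and 8.46 CPM in females and 289.8, 349, 224 and 346 CPM in males. Between them, Slc22a29 (chr19:8160165-8218900) was at 79.7, 46.6, 52.8 and 48.2 CPM in females and 3.46, 3.2, 3.62 and 3.6 CPM in males. The log2 fold changes were 3.53 ± 0.27, 4.75 ± 0.19 and −4.03 ± 0.18, so that the gene in the middle was higher in females and both flanking ones higher in males, without overlap of the groups. Slc22a27 (chr19:7864388-7966027), at low levels, was also higher in females (1.48 to 2.73 CPM against 0.24 to 0.884 CPM). These genes are close paralogs, and how the counting assigned reads that fit several of them is not given in the sources used here.

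The promoters of the 3 neighbors are shown because they are related in sequence while the genes differ in direction. Each runs from 250 bases before to 50 bases after the start that the RefSeq promoter table uses, which for Slc22a30 lies inside the outer end of the gene, 5′ to 3′ on the strand of the gene, from RefSeq GRCm38.p6. Capitals in the sequences of Slc22a28 and Slc22a29 mark bases that a local alignment did not match to the Slc22a30 promoter.
Slc22a30 (higher in males, minus strand, chr19:8405056-8405355): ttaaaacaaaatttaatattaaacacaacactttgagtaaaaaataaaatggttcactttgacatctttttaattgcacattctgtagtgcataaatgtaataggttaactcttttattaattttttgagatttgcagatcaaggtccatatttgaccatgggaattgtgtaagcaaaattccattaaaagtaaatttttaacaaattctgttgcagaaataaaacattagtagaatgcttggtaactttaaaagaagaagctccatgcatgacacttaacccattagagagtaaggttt
Slc22a28 (higher in males, minus strand, chr19:8131933-8132232): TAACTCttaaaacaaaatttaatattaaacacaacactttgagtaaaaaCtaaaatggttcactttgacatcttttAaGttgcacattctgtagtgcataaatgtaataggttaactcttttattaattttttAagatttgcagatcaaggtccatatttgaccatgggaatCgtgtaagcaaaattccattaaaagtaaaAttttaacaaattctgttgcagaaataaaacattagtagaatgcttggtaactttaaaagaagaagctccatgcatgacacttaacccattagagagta
Slc22a29 (higher in females, minus strand, chr19:8218851-8219150): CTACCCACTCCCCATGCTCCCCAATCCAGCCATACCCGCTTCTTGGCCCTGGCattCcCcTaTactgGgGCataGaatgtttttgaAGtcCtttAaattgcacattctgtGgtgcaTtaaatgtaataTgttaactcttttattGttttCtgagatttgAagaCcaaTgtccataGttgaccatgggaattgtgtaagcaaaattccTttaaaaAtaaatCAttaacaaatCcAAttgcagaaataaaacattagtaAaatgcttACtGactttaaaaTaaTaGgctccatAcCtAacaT
The promoters of the male-biased pair matched at 288 of 294 aligned bases (98%). That of Slc22a29 matched the Slc22a30 promoter at 208 of 245 aligned bases (84.9%), with 14 bases in gaps and its first 53 bases outside the alignment. The alignment is a description of the sequences and identifies no element that acts on them.

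Of 9 Slco organic anion transporters, 4 were higher in males and 3 in females, and Slco3a1, which carries prostaglandins and thyroid hormone, was at 83.2, 89.7, 80.9 and 80.1 CPM in females and 268, 282, 276 and 254 CPM in males (1.69 ± 0.07). Among 13 drug efflux pumps, 6 were higher in females and 2 in males (median −0.20). Abcc3, an exporter of conjugated organic anions, was at 70.6, 41.7, 43.9 and 29 CPM in females and 1.49, 0.886, 1.77 and 2.02 CPM in males (log2 fold change −4.92 ± 0.30, adjusted p = 5.33e-07). The P-glycoprotein genes Abcb1a (−1.16 ± 0.13) and Abcb1b (−1.22 ± 0.15) were lower in males, while Slc47a1, the luminal cation exporter MATE1 (0.52 ± 0.10), and Abcg2, a luminal exporter of urate and drugs (0.53 ± 0.07), were higher in males.

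Of 46 amino acid transporters, 6 were higher in males, 12 were higher in females and 28 did not pass the test. The share called was 39.1%, beside 31.7% of all genes, and library-total scaling gave 5 higher in males and 20 in females. The summed level of the list ran the other way, at 4827 to 5309 CPM in females and 5625 to 6083 CPM in males. No test was run on that sum. Slc7a12, a relative of Slc7a13, had the opposite bias, at 136, 85.2, 97.1 and 79 CPM in females and 11.9, 3.24, 62 and 28 CPM in males (log2 fold change −1.92 ± 0.58, adjusted p = 0.0259). Its male values were spread over more than a 10-fold range, all below the lowest female, and the call was lost without female replicate 1 or male replicates 1 or 4 (adjusted p up to 0.0694). Slc6a19, the main luminal carrier of neutral amino acids, had a log2 fold change of 0.03 ± 0.15 (adjusted p = 0.883), and Slc7a8, its basolateral counterpart for neutral amino acids, was lower in males (−0.80 ± 0.10). Of 18 sugar transporters, 3 were higher in females, near the share over all genes, and none in males, while 11 were higher in females under library-total scaling. Slc5a2, the glucose transporter SGLT2, was at 624, 519, 438 and 474 CPM in females and 468, 491, 459 and 381 CPM in males (−0.19 ± 0.11, adjusted p = 0.215, and −0.35 with adjusted p = 0.0205 when only the library total was used for scaling), whereas Slc5a1, SGLT1, was lower in males (−0.37 ± 0.10, adjusted p = 0.0167, and 0.0524 without male replicate 1).

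Carboxylate, phosphate and bicarbonate handling held a few clear members. Slc5a8, a sodium-coupled transporter of lactate and other monocarboxylates, was at 133, 142, 122 and 135 CPM in females and 297, 326, 328 and 342 CPM in males (1.28 ± 0.07, adjusted p = 2.38e-07), and it was 1 of 4 of 22 carboxylate transporters higher in males, with 4 higher in females (3 and 7 under library-total scaling). The share of that list called was 36.4%, near the 31.7% of all genes. Of 17 genes of proximal phosphate, sodium and bicarbonate handling, 5 were higher in males and 2 in females, a balance that turns with the library total as the only scaling (1 higher in males, 5 in females). Slc34a1, the main phosphate transporter NaPi-IIa, was at 5786, 5095, 4668 and 5468 CPM in females and 7021, 7478, 6372 and 6013 CPM in males (0.36 ± 0.09, adjusted p = 0.0142), a call lost when the library total was the only scaling (0.19, adjusted p = 0.106). The Slc34a1 call was also lost in the fits of 16 vehicle-treated mice, Alport mice included (adjusted p = 0.161), and of all 32 mice (0.416). The related Slc34a3, NaPi-IIc, was lower in males (−0.39 ± 0.12), a call lost without any 1 of female replicates 1, 3 and 4 or male replicates 1 and 4 (adjusted p up to 0.0694). The fits of 16 and 32 mice lost it too (adjusted p = 0.0712 and 0.512). Car4, the membrane-bound carbonic anhydrase, had a log2 fold change of 1.005 ± 0.12. The endocytic receptors megalin (Lrp2, −0.08 ± 0.08) and cubilin (Cubn, −0.14 ± 0.09) did not pass the test, although both did with the library total as the only scaling (Lrp2 −0.25, adjusted p = 0.032, and Cubn −0.31, adjusted p = 0.018). Of 8 genes of the list of endocytic receptors 2 were higher in males (25%, beside 31.7% of all genes called), with a median of 0.13 that becomes −0.04 when the library total is the only scaling.

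Distal salt and water genes leaned to females as a group. Of 36 tested, 23 were higher in females and 2 higher in males, with a median log2 fold change of −0.44. Slc12a3, the thiazide-sensitive sodium chloride cotransporter NCC, was at 1756, 1842, 1696 and 2062 CPM in females and 1155, 1315, 984 and 1083 CPM in males (log2 fold change −0.70 ± 0.10, adjusted p = 0.000302). Sgk1, the aldosterone-induced kinase that activates NCC and the epithelial sodium channel, was at 233, 136, 169 and 99.9 CPM in females and 64.9, 37.7, 44.5 and 27.2 CPM in males (−1.87 ± 0.27). The channel subunits Scnn1a (−0.58), Scnn1b (−0.52) and Scnn1g (−0.46) of the epithelial sodium channel were lower in males by similar amounts, while Slc12a1, the loop diuretic-sensitive cotransporter, did not pass the test (−0.30 ± 0.14, adjusted p = 0.107) except with the library total as the only scaling (−0.47, adjusted p = 0.0141) and without male replicate 3 (−0.44, adjusted p = 0.0154). Of 8 markers of distal convoluted and connecting tubule cells, 4 were lower in males and none was higher, and they summed to 3721 to 4990 CPM in females and 3316 to 3528 CPM in males, and their part in the difference was not tested.

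**Figure D2:**
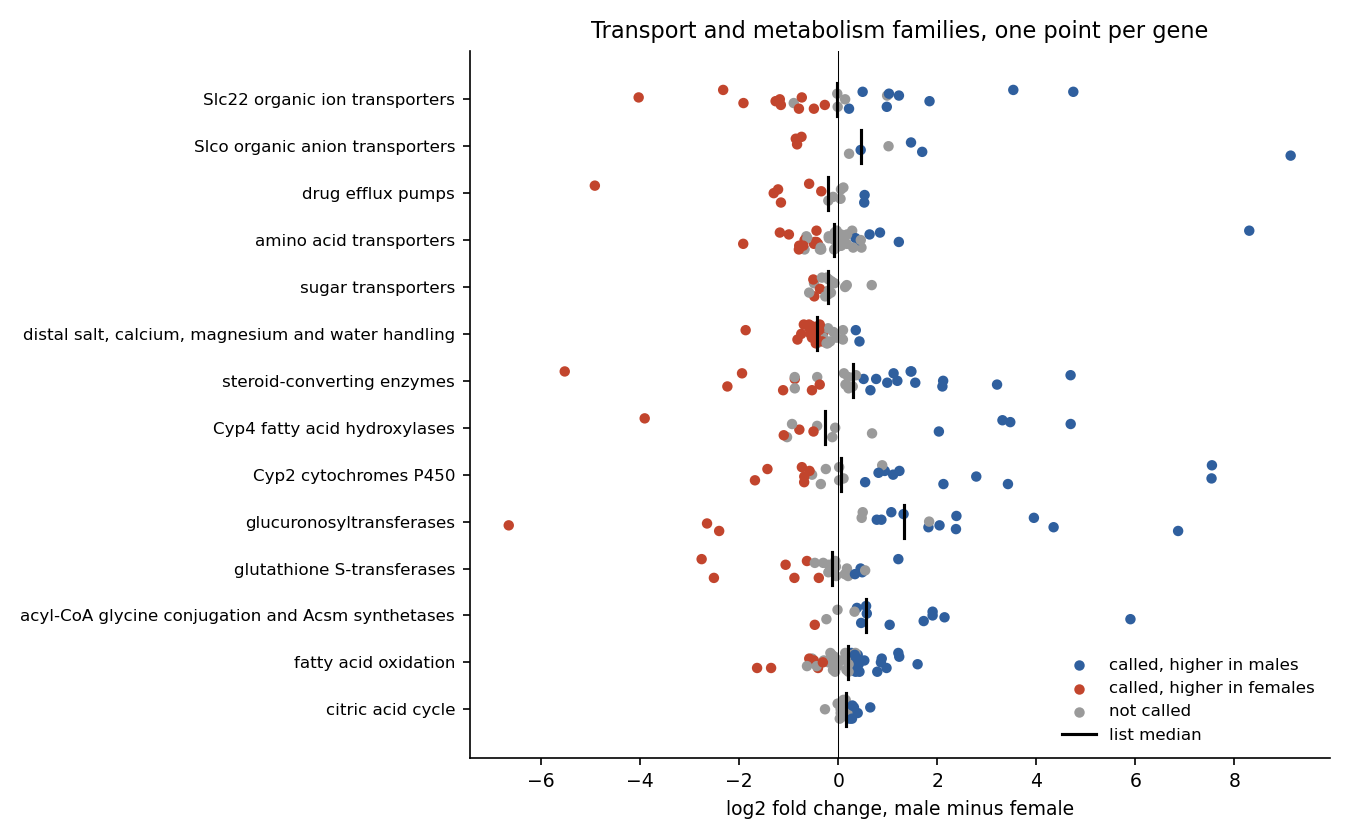
Log2 fold change, male minus female, on the x axis for each tested gene of 14 transport and metabolism lists (rows), with points colored by direction where they passed the adjusted threshold, gray where they did not, and a black bar at the list median. Several families, such as Slc22 and the steroid-converting enzymes, have members far out on both sides, and most distal salt and water genes sit to the left of 0. The point of Cyp2b10 at 7.54 is a fitted value for a gene with 0 counts in all females.

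Among fatty acid hydroxylases of the Cyp4 family, 4 of 14 were higher in males and 4 higher in females, and 4 and 8 under library-total scaling. Cyp4b1 (chr4:115624725-115647723), a monooxygenase that activates several toxicants, was at 306, 401, 480.5 and 404 CPM in females and 3969, 4683, 3216 and 3966 CPM in males (log2 fold change 3.31 ± 0.15). Cyp4a12a (chr4:115299046-115332815), the main producer of the vasoconstrictor 20-HETE in male mice, was at 1.95, 4.17, 1.74 and 1.72 CPM in females and 62.9, 86.3, 44.5 and 57.5 CPM in males (4.69 ± 0.28). Between them, Cyp4a14 (chr4:115486200-115496142), a PPARα target, was at 493, 786, 635 and 579.9 CPM in females and 22.7, 15, 106 and 22 CPM in males (−3.91 ± 0.54). The male with the highest Cyp4a14 level stood several-fold above the other males and still below every female.

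The Cyp2 family had 10 of 24 tested members higher in males and 7 in females, with a median of 0.06 that becomes −0.10 when only the library total is used for scaling. Cyp2e1, which oxidizes ethanol and small solvents, was at 163, 173, 178 and 164 CPM in females and 1858, 2127, 1609 and 1687 CPM in males (log2 fold change 3.43 ± 0.10, adjusted p = 9.09e-10). Cyp2d9, a testosterone 16α-hydroxylase, was higher in males (2.79 ± 0.23) and Cyp2d26 lower (−1.43 ± 0.10). Cyp2b10, named here after its values were seen, had 0 counts in every female library and 11 to 38 in the male libraries, which puts it at least 32.7-fold higher in males against a floor of 3 counts over the female group.

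Glucuronosyltransferases leaned to males, with 11 of 17 higher in males and 3 in females, with a median of 1.32. Ugt2b37 (chr5:87240493-87254804) was at 1.44, 3, 1.41 and 2.6 CPM in females and 278, 216, 216 and 277 CPM in males (6.86 ± 0.21), and Ugt2b38 (chr5:87409942-87424203) ranged over 50.5 to 85 CPM in females and 798 to 1233 CPM in males (3.95 ± 0.18). In the same cluster, Ugt2b34 (chr5:86889767-86906937) was higher in females, at 94.7, 114, 100.3 and 89.9 CPM against 13.9, 17.8, 15.2 and 16.5 CPM (−2.65 ± 0.10). Ugt8a, which makes galactosylceramide, was at 5.22, 4.51, 5.68 and 5.07 CPM in females and 101, 99.6, 107 and 109.6 CPM in males (4.35 ± 0.08, adjusted p = 2.9e-11).

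Ugt1a2 shares its last exons with the other genes of the Ugt1a locus on chromosome 1, so the assignment of reads among them is uncertain and their sum is the safer measure. Over the 9 Ugt1a genes the sum was 2733, 2514, 2440 and 2691 CPM in females and 889.5, 874.1, 976.3 and 919.1 CPM in males, and Ugt1a2 made up 75.2% to 79.3% of it in females and 1.58% to 3.25% in males. Without Ugt1a2 the sum ran the other way, at 541.4 to 623.3 CPM in females and 858.7 to 944.6 CPM in males. The groups did not overlap in either sum, and no test was run on the sums.

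Most other detoxifying enzymes leaned to males, glutathione S-transferases excepted. Of 14 genes of acyl-CoA glycine conjugation and N-acetylation, 10 were higher in males and 1 in females (median 0.57). Acsm2, which activates benzoate and medium-chain fatty acids, was at 1592, 1178, 1150 and 1169 CPM in females and 5022, 5301, 4266 and 4460 CPM in males (1.90 ± 0.12), and Nat8, a cysteine conjugate N-acetyltransferase, had a log2 fold change of 1.72 ± 0.10. Of 15 flavin monooxygenases, carboxylesterases and aldehyde oxidases, 8 were higher in males and 1 in females. Ces1f, a carboxylesterase, was at 69.7, 51.6, 45 and 40.1 CPM in females and 858, 961, 764 and 1009 CPM in males (4.12 ± 0.17), and Fmo5, a flavin monooxygenase, ranged over 12.5 to 19.7 CPM in females and 134 to 158 CPM in males (3.19 ± 0.12). Of 23 glutathione S-transferases, 6 were higher in females and 4 in males, led by Gsta4, which clears the lipid peroxidation product 4-hydroxynonenal, at 150.3, 199, 194 and 145 CPM in females and 23.9, 22.8, 28.3 and 26.6 CPM in males (−2.76 ± 0.12, adjusted p = 2.5e-08). The sulfotransferases held 3 of 6 tested members higher in males, Sult1b1 (0.65 ± 0.16), Sult1d1 (0.42 ± 0.07) and Sult1c2 (0.28 ± 0.08), and none higher in females, although library-total scaling put 2 higher in each sex, and Sult1c2 lost the call under that scaling (adjusted p = 0.277) and without female replicate 4 or male replicates 1, 2 or 3 (adjusted p up to 0.0556).

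**Figure D3:**
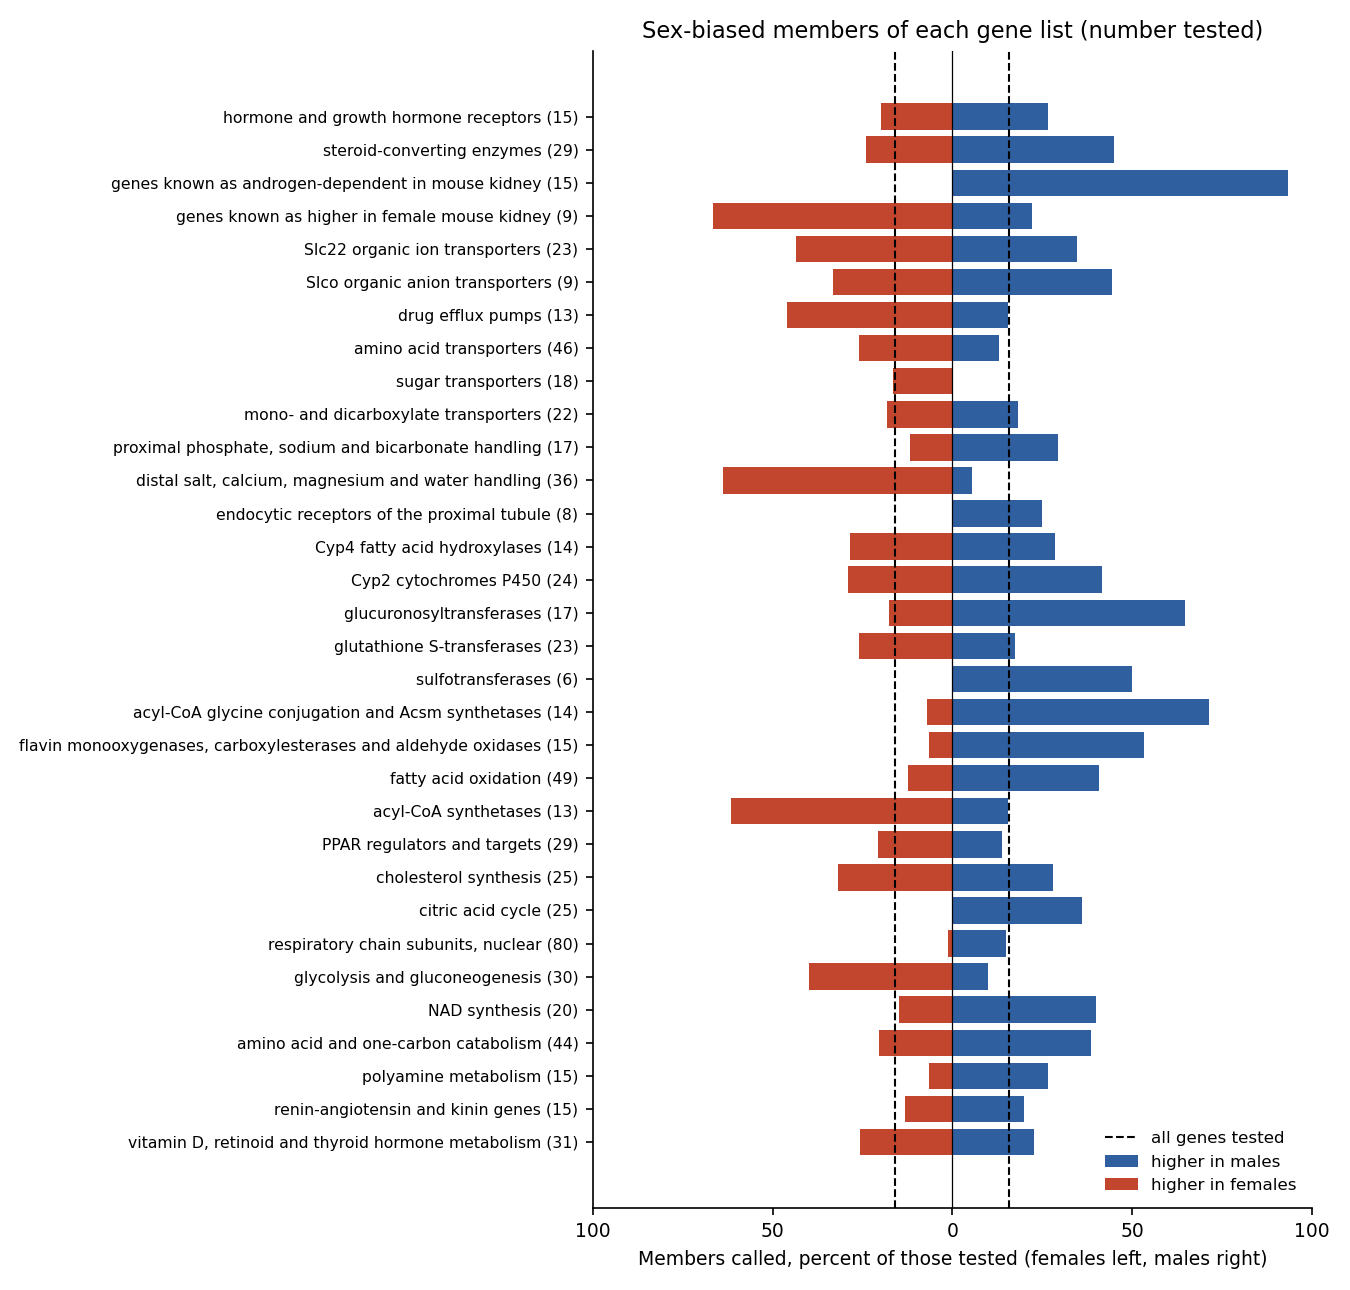
Percent of tested members higher in males (right) and higher in females (left) for each gene list, with the number tested in parentheses. Dashed lines mark the 15.8% and 15.9% of all genes that were higher in males and in females, and the androgen-dependent list on the right and the lists of known female-biased, distal salt and water and acyl-CoA synthetase genes on the left reach well past them.

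Differences in energy metabolism were mostly small. The share of genes called was 53.1% in fatty acid oxidation and 50% in glycolysis and gluconeogenesis. It was 36% in the citric acid cycle and 16.2% in respiratory chain subunits, beside 31.7% of all genes. Of 49 genes of fatty acid oxidation, 20 were higher in males and 6 in females, with a median of 0.20. When only the library total is used for scaling, 13 were higher in males and 11 in females, and the median shrinks to 0.04. Some of those higher in males encode peroxisomal enzymes: Amacr, the racemase for branched fatty acids, at 82.3 to 95 CPM in females and 234 to 329 CPM in males (1.60 ± 0.10), and Phyh, the phytanoyl-CoA hydroxylase (0.88 ± 0.06). Hacl1, the peroxisomal lyase that acts after Phyh, was lower in males, at 144, 149, 125 and 126 CPM in females and 49.7, 47.5, 65.3 and 50.04 CPM in males (−1.36 ± 0.10). Cpt1a, which admits fatty acids to mitochondria, was slightly higher in males (0.35 ± 0.10, adjusted p = 0.0193), a call lost with library-total scaling (0.19, adjusted p = 0.135) and without female replicates 3 or 4 or male replicate 2 (adjusted p up to 0.0595).

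By number of genes, acyl-CoA synthetases and fatty acid carriers leaned to females, 8 of 13 against 2 higher in males (median −0.32). Among the 8 were Acsl1 (−1.005 ± 0.14) and Acss1, a mitochondrial acetyl-CoA synthetase (−0.91 ± 0.09), while the cytosolic Acss2 was higher in males (0.90 ± 0.08). The summed level of the list ran the other way, at 4202 to 4921 CPM in females and 5068 to 5754 CPM in males. No test was run on that sum. The abundant Slc27a2 had 65557 to 91197 counts per female library and 81981 to 111784 per male library. It was higher in males, a call lost in the fit of all 32 mice (adjusted p = 0.118). Of 29 PPAR regulators and targets, 4 were higher in males and 6 in females (34.5%, near the 31.7% of all genes), and 1 and 11 under library-total scaling. Ppara itself did not pass the test (−0.11 ± 0.09, adjusted p = 0.372, and −0.27 with adjusted p = 0.0221 under that scaling). Fabp1, the liver-type fatty acid binding protein, was higher in females at low levels (1.17 to 4.56 CPM against 0.096 to 0.442 CPM). Cholesterol synthesis was divided, with 7 of 25 genes higher in males and 8 in females, the former including Idi1 (1.42 ± 0.15) and Hmgcs1 (0.86 ± 0.09), early enzymes of the pathway.

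In the citric acid cycle 9 of 25 genes were higher in males and none in females, and the median of 0.15 becomes −0.02 when the library total is the only scaling, where 2 genes were higher in males and 2 in females. The member with the largest difference was Pcx, the anaplerotic pyruvate carboxylase, at 671, 654, 611 and 626 CPM in females and 992, 1071, 1109 and 833 CPM in males (0.65 ± 0.09). Of 80 nuclear-encoded respiratory chain subunits, 13 (16.2%) passed the test beside 31.7% of all genes, 12 of them higher in males, a direction that turns under that scaling (1 higher in males, 7 in females). Cycs, cytochrome c, was their largest male excess (0.86 ± 0.11).

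Glycolysis and gluconeogenesis leaned to females in 12 of 30 genes and to males in 3 (median −0.19). Pck1, the gluconeogenic phosphoenolpyruvate carboxykinase, was at 6179, 7602, 4584 and 9119 CPM in females and 3920, 4195, 5919 and 3901 CPM in males (−0.62 ± 0.20, adjusted p = 0.0315), with overlapping groups, and 5 of the 8 libraries each took the call away when left out (adjusted p up to 0.0988), as did DESeq2 (adjusted p = 0.052), the replicate block (0.0652), the fit of 16 vehicle-treated mice (0.114) and the fit of 32 mice (0.376). The glycolytic Hk1 (−0.52 ± 0.07), Pfkp (−0.76 ± 0.08) and Pkm (−0.51 ± 0.07) were lower in males, and Ldha, lactate dehydrogenase A, was higher (0.63 ± 0.06). G6pc, glucose-6-phosphatase, did not pass the test (−0.10 ± 0.21, adjusted p = 0.744).

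Of 20 genes of NAD synthesis, 8 were higher in males and 3 in females (median 0.24), and 5 and 4 under library-total scaling (median 0.08). The share called was 55%, beside 31.7% of all genes. The summed level of the list ran the other way, at 1930 to 2307 CPM in females and 1754 to 1889 CPM in males. No test was run on that sum. The kynurenine aminotransferase Aadat, at 503 to 851 CPM in females and 218 to 262 CPM in males (−1.45 ± 0.14), and Kynu (−1.30 ± 0.13) were higher in females. Haao (0.49 ± 0.08) and Qprt (0.47 ± 0.08) were higher in males, although Haao lost the call in the fit of all 32 mice (adjusted p = 0.245). Nampt, the salvage enzyme for nicotinamide, was at 210.4 to 223 CPM in females and 219.5 to 230.2 CPM in males (0.04 ± 0.06, adjusted p = 0.651), and Nmrk1, the kinase that phosphorylates nicotinamide riboside, was higher in males (0.58 ± 0.15, but adjusted p = 0.0554 with library-total scaling). Of 44 genes of amino acid and one-carbon catabolism, 17 were higher in males and 9 in females, with a median of 0.15 that becomes −0.01 under library-total scaling. Cbs, which starts transsulfuration, was 2.31-fold higher in males, and Bhmt, which remethylates homocysteine, was 4.38-fold higher in females (55.7, 101, 81 and 100.1 CPM against 16.9, 22, 22.2 and 16 CPM).

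Of 15 polyamine genes, Odc1 included, 4 were higher in males and 1 in females (median 0.13). The balance turns under library-total scaling (1 higher in males, 3 in females, median −0.03). Sat1, Sat2 and Oaz1, higher in males like Odc1, lost the call under that scaling and in the fits of 16 and 32 mice. The share of polyamine genes called was 33.3%, near the 31.7% of all genes. Of 15 renin-angiotensin and kinin genes, 3 were higher in males and 2 in females, a balance that turns under library-total scaling (1 higher in males, 4 in females). The share called was again 33.3%, near that of all genes. Ren1, renin, did not pass the test (−0.33 ± 0.27, adjusted p = 0.382, and 0.0409 without female replicate 3), nor did Ace, the angiotensin converting enzyme (0.30 ± 0.13, adjusted p = 0.0904, and 0.0270 without female replicate 1), while the kininogen Kng2 was lower in males (−0.58 ± 0.09). Of 31 genes of vitamin D, retinoid and thyroid hormone metabolism, 7 were higher in males and 8 in females. Dio1, which activates thyroid hormone, was at 108, 69.8, 48.4 and 84.7 CPM in females and 16.2, 12, 23 and 12.2 CPM in males (−2.30 ± 0.25), and Adh1, an alcohol and retinol dehydrogenase, was 3.5-fold higher in males. The vitamin D enzymes Cyp27b1 and Cyp24a1 varied so widely within each sex, Cyp24a1 over 139 to 489 CPM in females and 65.2 to 385 CPM in males, that no difference was detectable (adjusted p = 0.745 and 0.443).

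Cell type markers also moved with sex, and their part in the gene differences was not tested. Podocyte markers were lower in males in 9 of 12 genes, none higher, with a median of −0.57 and summed levels of 791.9 to 859.4 CPM in females and 579.6 to 653.8 CPM in males. Nphs1, nephrin, the core protein of the slit diaphragm, was at 56.9, 50.6, 54.3 and 57 CPM in females and 34.5, 33.9, 24.7 and 24.4 CPM in males (−0.90 ± 0.12). Fibroblast and mural cell markers were lower in males in 9 of 12, endothelial markers in 5 of 10, collecting duct principal cell and intercalated cell markers in 5 of 8 each, thick ascending limb markers in 4 of 10 with 1 higher, and macrophage and dendritic cell markers in 3 of 12. Under library-total scaling endothelial markers were lower in males in 10 of 10 and macrophage and dendritic cell markers in 9 of 12. Markers of all proximal tubule segments were higher in males in 5 of 14 and lower in none (35.7% called, near the 31.7% of all genes). They summed to 27380 to 32590 CPM in females and 33230 to 35640 CPM in males, although their median of 0.07 becomes −0.09 under library-total scaling. Of 6 markers of segment S1, 0 were higher in males and 1 in females (median −0.14). Of 7 markers of segment S3, 1 was higher in males and 1 in females (median −0.19). The S1 markers summed to 1588 to 2287 CPM in females and 1400 to 1923 CPM in males. Those of S3 summed to 2385 to 2844 CPM in females and 3240 to 3593 CPM in males. Of 8 adrenal gland markers, 1, Star, had enough counts to be tested and did not pass (−0.39 ± 0.17, adjusted p = 0.0966, and 0.0261 under library-total scaling), and the list summed to 4.72 to 6.15 CPM in females and 3.62 to 5.09 CPM in males. Of 10 adipocyte markers 4 were tested and none passed, with sums of 156 to 180.9 CPM in females and 152.2 to 189 CPM in males, and the defining Adipoq had 0 counts in all 8 libraries. Of 10 markers of medulla and urothelium 5 were tested, of which 1 was higher in males and 2 in females, with sums of 186.4 to 235.1 CPM in females and 162.2 to 201.5 CPM in males. The part of these cells in the sex differences was not tested.

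Genes known from tubule injury were lower in males in 6 of 11, none higher (median −0.72). Spp1, osteopontin, was at 1758, 1274, 1575 and 1418 CPM in females and 532, 464, 586 and 462 CPM in males (−1.56 ± 0.11, adjusted p = 1.83e-06). Havcr1, the injury marker KIM-1, was at 1.72, 0.861, 3.87 and 0.88 CPM in females and 2.45, 2.77, 1.24 and 0.815 CPM in males, with overlapping groups (−0.01 ± 0.51, adjusted p = 0.988). Of 6 red blood cell genes, 5 were higher in males and 1 in females, with hemoglobin genes summing to 292.5 to 599.9 CPM in females and 880.4 to 1338 CPM in males. Hba-a1, Hba-a2, Hbb-bs and Hbb-bt lost the call in the fit of all 32 mice (adjusted p = 0.166 to 0.216).

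**Figure D4:**
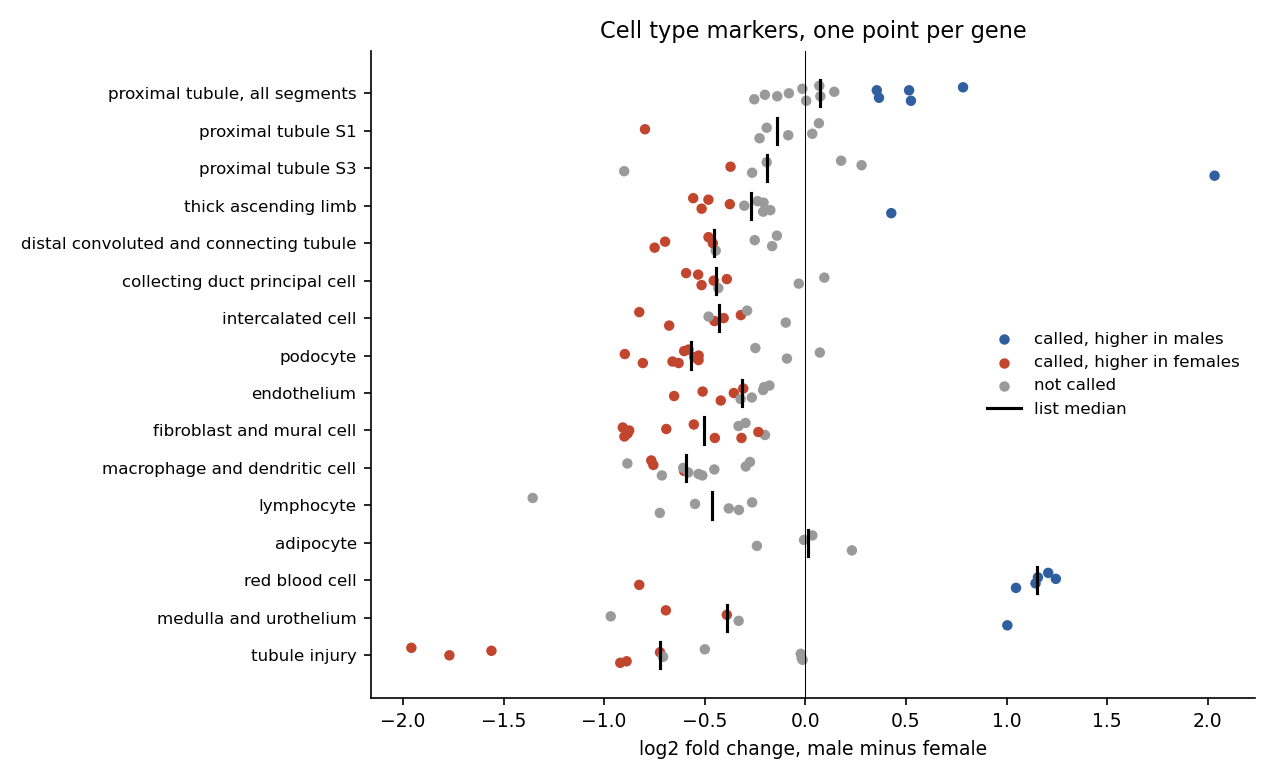
Log2 fold change, male minus female, on the x axis for each tested marker gene of 16 marker lists (rows), colored by direction where the adjusted threshold was passed and gray where it was not, with black bars at list medians. Podocyte, stromal and distal nephron markers lie mostly to the left of 0, and the red blood cell list has its median at 1.15.

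The same contrast in the 4 male and 4 female NR-treated controls, which share no mouse with the vehicle groups, gave a smaller count of differences. Of 14668 genes tested, 398 (2.71%) differed, 194 higher in males (1.32%) and 204 in females (1.39%), and 157 (1.07%) differed at least 2-fold, 82 higher in males (0.559%) and 75 in females (0.511%). The count of 398 fell to 133, 190, 127 and 138 without female NR replicates 1, 2, 3 and 4 in turn, was 230 without male NR replicate 2 and rose to 799 without male NR replicate 4. Of 4705 genes that differed in the vehicle mice and were tested in both sets, 3992 (84.8%) had the same sign, beside 69.3% of all genes tested in both, and 350 passed the threshold in both with the same direction. Among those with at least a 2-fold difference in vehicle mice, 486 of 554 (87.7%) had the same sign and 179 passed in both.

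Kap, Slco1a1 and Slc7a13 were spread widely among NR-treated males. Kap was at 1855, 8704, 1277 and 4984 CPM in the NR-treated males and 103, 260.3, 404 and 503 CPM in the females, Slco1a1 at 3.32, 106, 4.04 and 7.99 CPM and 0.352, 0.412, 0.17 and 0.342 CPM, and Slc7a13 at 283, 621, 219 and 491 CPM and 2.91, 2.34, 1.53 and 3.67 CPM. For each of the 3 genes every NR-treated male was below every vehicle-treated male and above every NR-treated female. Male replicate 2 had the highest value, and male replicates 1 and 3 were below replicates 2 and 4. Cyp2e1 was divided in the same way among the NR-treated males (423, 1739, 439 and 1128 CPM), and Gsta4 in the reverse way (315, 37.4, 299 and 74.9 CPM). Acsm3 was not so divided (139, 214, 67.2 and 92.35 CPM). Ugt1a2 was at 649, 125, 676 and 366 CPM in the NR-treated males and 1466, 1918, 1165 and 1430 CPM in the females, so that every male was below every female and above every vehicle-treated male. Library totals were 16621944 to 26314137 counts in the NR-treated mice, overlapping those of the vehicle-treated ones. CPM were scaled separately within each diet, so values of vehicle-treated and NR-treated mice are not on a common scale. Small gaps between the diets, such as Kap at 8704 against 9874 CPM, are therefore uncertain.

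Whether the sex difference itself differed between diets was tested as an interaction in all 16 control mice, which called 105 of 15379 genes (0.683%), 2458 at an unadjusted p under 0.05, and 504 with DESeq2. The number was 22 without female NR replicate 3, 336 without male NR replicate 2 and 677 without male NR replicate 4, and leaving out any 1 of the 16 mice except vehicle female replicate 2 and vehicle male replicate 3 moved it by more than 1.5 times. Ugt1a2 had the smallest adjusted p among all genes, its log2 fold change being −6.66 in vehicle and −1.72 in NR-treated mice (interaction 4.93 ± 0.53, adjusted p = 0.00072). Cyp4a14 went from −3.91 to 0.25 (interaction 4.15 ± 0.66, adjusted p = 0.0127), with 3008, 1681, 2831 and 2057 CPM in NR-treated males and 1919, 1152, 2633 and 2330 CPM in NR-treated females, all above every vehicle-treated mouse. Acsm3 (5.90 and 3.27), Ces1f (4.12 and 1.86), Abcc3 (−4.92 and −2.12) and Slc22a29 (−4.03 and −2.22) kept their direction with a smaller difference under NR. For Slc12a3 (−0.70 and −0.68), Slc22a8 (−0.49 and −0.54), Slc22a28 (3.53 and 3.68) and Cyp7b1 (4.69 and 4.75) the values of the sets lay close together, and the interaction did not pass the test.

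**Figure D5:**
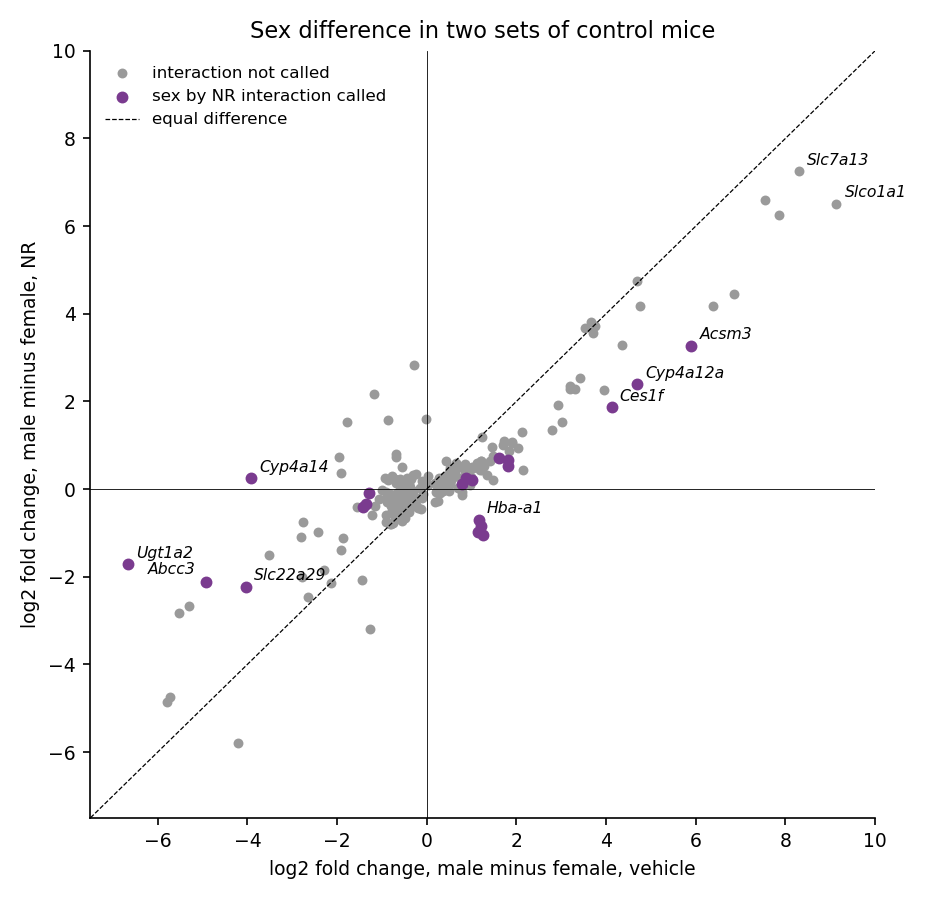
Log2 fold change, male minus female, of the named autosomal and X-linked genes in vehicle-treated (x axis) and NR-treated (y axis) control mice, with the dashed line at equal values and colored points where the sex by NR interaction passed the adjusted threshold. Most strongly biased genes keep their side but lie nearer to 0 on the NR axis, while Cyp4a14, the hemoglobin genes and some others, such as Slc22a27, Fgb, Lcn2 and Atf3, leave their vehicle side.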

How the data were processed

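Kidney cortex RNA (poly(A) selected) was sequenced in 32 mice, and the counts per gene are those the authors deposited, with the build mm10 per the labels; the aligner's version, the annotation and the strand setting are not given in the sources used here. The deposited log10 CPM table was recomputed from the counts to within 4.44e-16 and not used further. Male and female controls were compared, 4 mice a group, with edgeR 4.0.16 (R 4.3.3), TMM scaling, a minimum count of 10 and the quasi-likelihood test with Benjamini-Hochberg adjustment at 0.05, which gives every adjusted p unless DESeq2 (1.42.0) is named. On simulated data with the vehicle design and 200 genes changed, 41 of 74 genes changed 1.5-fold, 60 of 64 changed 2-fold and 53 of 55 changed 4-fold were found, with 8 false calls among 14835 genes. The share of genes that differ was much smaller there than in the real contrast. The labels do not say that mice of a group came from separate litters, so p-values measure the spread between these mice. Members and gene lists were chosen with earlier results of these data known. Named genes were the 12 autosomal genes with the largest fold in each direction (groups not overlapping, mean of at least 5 CPM in the higher group, no predicted models), up to 5 called members with the smallest p and up to 3 defining members of each list, and a set of known dimorphic transport, enzyme and receptor genes. Promoters are from RefSeq GRCm38.p6, aligned with Biopython 1.88. Alternatives were DESeq2, RLE scaling, no filter, a minimum of 0.5 CPM, fits of 16 or 32 mice, a replicate block, leaving out each mouse and, chosen after seeing the data, scaling by the library total alone. Some items are not reported here.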

Additional observations from a re-analysis of the deposited data

Results flagged for a closer look

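Of 502 groups of 4 mice checked, 23 had a mouse far from the other 3 by Dixon's criterion (25.1 expected, since chance marks about 1 in 20 groups). Among genes of hormone and steroid metabolism these mice were female replicate 3 for Hsd17b11 (110.4 CPM), female replicate 1 for Srd5a1 (16.53 CPM) and Akr1c14 (42.14 CPM), female replicate 4 for Cyp2a4 (127.6 CPM) and male replicate 4 for Rxra (151.6 CPM). Among transporters they were female replicate 3 for Slco1a1 (0.1448 CPM) and Trpv5 (26.53 CPM), female replicate 2 for Slc34a3 (38.59 CPM), male replicate 4 for Slc7a13 (1196 CPM) and Scnn1g (35.97 CPM) and male replicate 2 for Slc20a2 (69.6 CPM). Among enzymes and lipid regulators they were female replicate 2 for Cyp4a12a (4.165 CPM), male replicate 3 for Cyp4a14 (106.3 CPM), Pck1 (5919 CPM) and Hacl1 (65.28 CPM), female replicate 1 for Acsm2 (1592 CPM) and Atp5s (10.33 CPM) and female replicate 3 for Ppard (24.76 CPM). Among cell markers they were male replicate 3 for Egf (1690 CPM), female replicate 3 for Atp6v1c2 (26.86 CPM), female replicate 1 for Tagln (33.06 CPM) and male replicate 4 for Dcn (11.66 CPM) and Cd68 (2.401 CPM).

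For 20 named genes the sex difference itself differed between NR-treated and vehicle-treated controls, by the interaction term of edgeR's quasi-likelihood fit of 16 mice, given here as the log2 difference, NR minus vehicle. Genes higher in males under vehicle had a smaller fitted male excess under NR: Acsm3 (−2.633), Cyp4a12a (−2.31), Ces1f (−2.266), Adh1 (−1.282), Ces2c (−1.153), Amacr (−0.9067), Car4 (−0.7992), Acads (−0.683) and Phyh (−0.6288). The NR-treated males were uneven. Ces1f, Adh1, Ces2c, Amacr, Acads and Phyh were lower in male replicates 1 and 3 than in 2 and 4. Acsm3, Cyp4a12a and Car4 were not divided in this way. Genes higher in females under vehicle had a smaller fitted female excess: Ugt1a2 (4.929), Abcc3 (2.787), Slc22a29 (1.8), Kynu (1.196), Hacl1 (1.018) and Cyp2d26 (1.013), and for Cyp4a14 (4.154) the fitted direction turned. Ugt1a2, Hacl1, Cyp2d26 and Cyp4a14 were higher in NR-treated male replicates 1 and 3 than in 2 and 4, while Abcc3 and Kynu were not. The hemoglobin genes Hbb-bt (−2.296), Hba-a2 (−2.137), Hbb-bs (−2.051) and Hba-a1 (−1.859) were on the male side under vehicle and had negative fitted values under NR, with sums over hemoglobin genes of 1048 to 1475 CPM in NR-treated females and 559 to 872.7 CPM in NR-treated males. Whether red cells retained in the tissue account for this was not tested.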

How the results depend on the processing

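None of the 233 named genes that passed the test turned direction under an alternative, and 86 of them lost the call under at least 1 of them, while 13 that had not passed gained it. The 4756 genes differing in vehicle-treated mice became 2799 in a single fit of 32 mice and 5142 with DESeq2, and 3808 to 4380 when a mouse was left out. The count at 2-fold stayed between 546 and 804, and between 582 and 670 without a mouse. The 398 genes of the NR-treated mice became 862 with DESeq2, and 127 (without female NR replicate 3) to 799 (without male NR replicate 4). The interaction count of 105 became 504 with DESeq2, 7 in the fit of 32 mice, and 22 to 677 without those mice in the same order, and the cause was not tested. With the replicate number as a block the counts were 4296, 603, 313 and 61 in the same order. Deviations of same-numbered mice from their groups were weakly correlated (0.00527 to 0.166, 1 of 8 above 0.1). The study states that it balanced treatment groups across litters. Correlations over all genes cannot show whether same-numbered mice shared a litter, so a pairing of the mice remains undecided. The 339 listed genes that differed ranged from 336 to 362, and from 299 to 331 without a mouse. Of 1248 list counts recomputed, 111 moved by more than 1.5 times. The simulation changed only 200 genes, far fewer than the 4756 that differed here. Its share found at 1.5-fold therefore does not measure what the test could find in these data. With 4 mice a group, small differences may still have been missed.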

Other observations

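Circadian clock and output genes, which follow the hour at which tissue was taken, were divided, 3 of 17 being higher in males and 4 higher in females. The share called was 41.2%, beside 31.7% of all genes. Their median log2 fold change of −0.09 becomes −0.25 when the library total is the only scaling, where 1 was higher in males and 6 in females. Of 12 immediate early and heat shock genes, which respond within minutes to handling, 4 were higher in females and 1 higher in males (median −0.28). The share called was 41.7%, and library-total scaling gave 7 higher in females and 0 in males. Those called, Btg2, Atf3, Egr1, Hspa1b and Hsph1, all lost the call in the fit of 32 mice (adjusted p = 0.204 to 0.359). All of them except Btg2 also lost it when any 1 of several mice was left out. Lymphocyte markers had summed levels of 7.99 to 30.7 CPM in females and 7.13 to 8.32 CPM in males. The hour of collection for each mouse is not given in the sources used here.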
